A study of Rattus norvegicus with 10 samples.

Results

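The genes described here are those that rat primary neuron cultures expressed at a clear level and that fell at least 5-fold with both of 2 histone deacetylase (HDAC) inhibitors. A gene was taken when its mean normalised read count was at least 200 in both sets of control cultures and its mean in treated cultures was at most 0.2 times the control mean, both with trichostatin A (TSA) and with sodium butyrate (NaB). Of 32883 annotated genes, 10161 reached the control level in both sets and 63 met the whole rule. The rule used the values of the treated and control libraries themselves, so the size of the fall in these 63 genes is a description and no test of it is given.

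Cortical cells of newborn Wistar rats were grown for 14 days in vitro before the inhibitors were added, without washout. TSA was applied at 100 nM for 19 h to 3 cultures, beside 3 untreated control cultures, and NaB for 24 h to 2 cultures, beside 2 untreated control cultures of their own. The sample labels give the NaB dose as 5 µM, and the study's methods and results give it as 5 mM. The methods also place the working range of NaB at millimolar concentrations, but the unit in the labels was not resolved here. Each control and treated pair shared a plate. The NaB cultures came from a separate project, so that drug, dose, incubation time and project cannot be told apart in a comparison of the responses. RNA selected by oligo(dT) was sequenced in bulk, and the 10 libraries held 26070908 to 27649249 reads assigned to genes. In such cultures, which mix neurons, glia and dividing cells, fewer cells of a type and less RNA per cell cannot be told apart. The deposited genes carry Ensembl identifiers without names, and none of the 63 identifiers was paired with a symbol in the sources used here. The genes are therefore described by identifier or by rank, no role is given for any of them, and the neuronal and glial markers of the cultures were not checked.

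Histone deacetylases remove acetyl groups from lysines of histones and of other proteins. TSA, a hydroxamic acid, and NaB, the salt of a short-chain fatty acid, both block zinc-dependent deacetylases, and acetylated histones then accumulate. Gain of acetylation at promoters is mostly linked with transcription, but treatment with such inhibitors lowers the transcripts of many genes as well as raising those of others, and the direct and the secondary effects are mixed after many hours.

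Falls of this size were uncommon in both experiments. Among the 10161 genes at the control level, the treated mean was at most 0.2 times the control mean in 83 genes with TSA (0.817%) and in 148 genes with NaB (1.46%). Both bounds were met by 63 genes (0.62%), which were 75.9% of the TSA list and 42.6% of the NaB list. The 20 genes that met the bound with TSA alone had NaB ratios with a median of 0.229 and a maximum of 0.578. The 85 genes that met it with NaB alone had TSA ratios with a median of 0.306 and a maximum of 0.994. Of the same background, 11 genes rose at least 5-fold with TSA, 13 with NaB and 8 with both. The median ratio of all 10161 genes was 0.935 with TSA and 0.933 with NaB. This background leaves out genes with low control counts, so its numbers of falls and rises are shaped by that limit. Among 15717 genes tested with limma, 2117 rose and 1299 fell with TSA at a log2 change of at least 1. With NaB 1992 rose and 1458 fell (both at adjusted p below 0.05).

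The 63 genes were spread over a wide range of expression. Their control means ran from 213 to 45670 normalised counts in the TSA experiment, with a median of 910, and from 202 to 38299 in the NaB experiment, with a median of 749. The medians of all genes at the control level were 1175 and 1170. The treated/control ratio ran from 0.00217 to 0.197 with TSA, with a median of 0.120, and from 0.000489 to 0.1999 with NaB, with a median of 0.0926. As folds, the quartiles of the fall were 5.88, 8.33 and 17.3 with TSA and 6.64, 10.8 and 16.5 with NaB. The ratio was lower with TSA in 34 genes and lower with NaB in 29. It was within 1.5 times of the other drug's ratio in 33 genes and more than 2 times apart in 19.

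**Figure D1:**
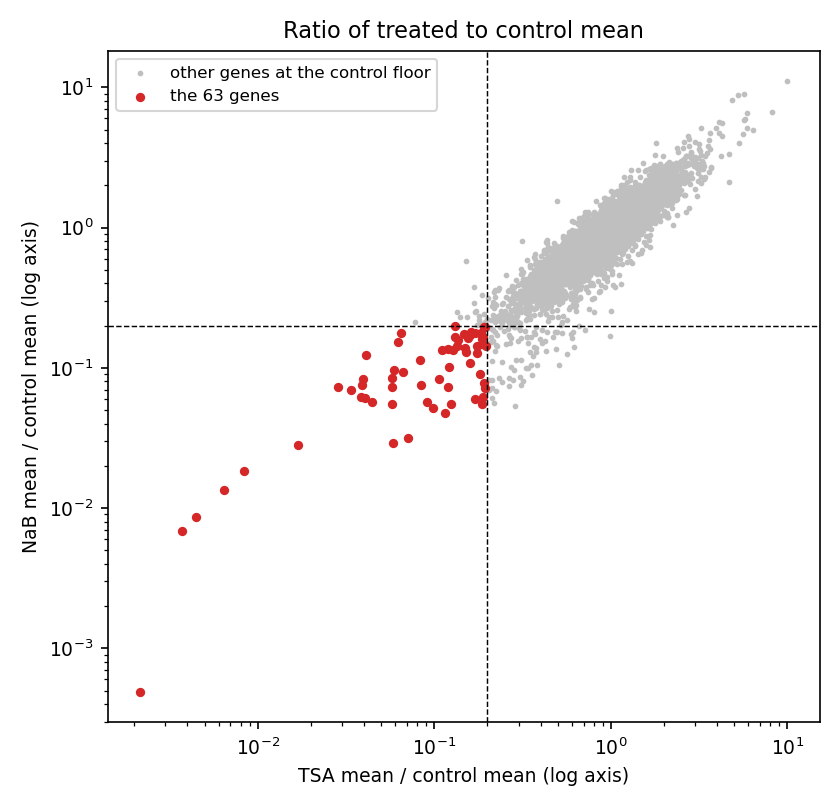
Treated/control ratio of the mean normalised counts with TSA (x axis, log scale) and with NaB (y axis, log scale) for genes at the control level of 200, with 1 point per gene, the 63 genes in red, the other genes in grey and dashed lines at 0.2. The 63 genes fill the corner below 0.2 on both axes, and 5 of them lie below 0.02 on both.

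The 63 genes were low in the treated cultures and high in the untreated control cultures. The median gene had 1020, 976 and 610 normalised counts in the 3 controls of the TSA experiment and 58.1, 95.9 and 60.2 in the 3 TSA-treated cultures. It had 636 and 885 in the 2 controls of the NaB experiment and 53.9 and 56.9 in the 2 NaB-treated cultures. All treated libraries were below all controls for each of the 63 genes with TSA, as they were in 31.5% of the 15717 genes tested, and for each of the 63 with NaB, as in 38.9% of the genes tested. The rule used these contrasts, so nothing is read from either count.

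Within the pairs of cultures that shared a plate, none of the 63 genes failed to fall. The rule used the means of these same values, so the falls and counts within pairs are descriptions and nothing is read from them. The median treated/control ratio of the 63 genes was 0.104, 0.143 and 0.101 in the 3 TSA pairs and 0.0963 and 0.0990 in the 2 NaB pairs. The ratio was at most 0.2 in 62, 44 and 58 genes in the TSA pairs and in 55 and 63 genes in the NaB pairs. By this median and this count, the second TSA pair had the smallest fall. The highest ratio of any gene in any pair, 0.555, was in the first NaB pair. All 5 pairs were within the bound for 38 genes.

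**Figure D2:**
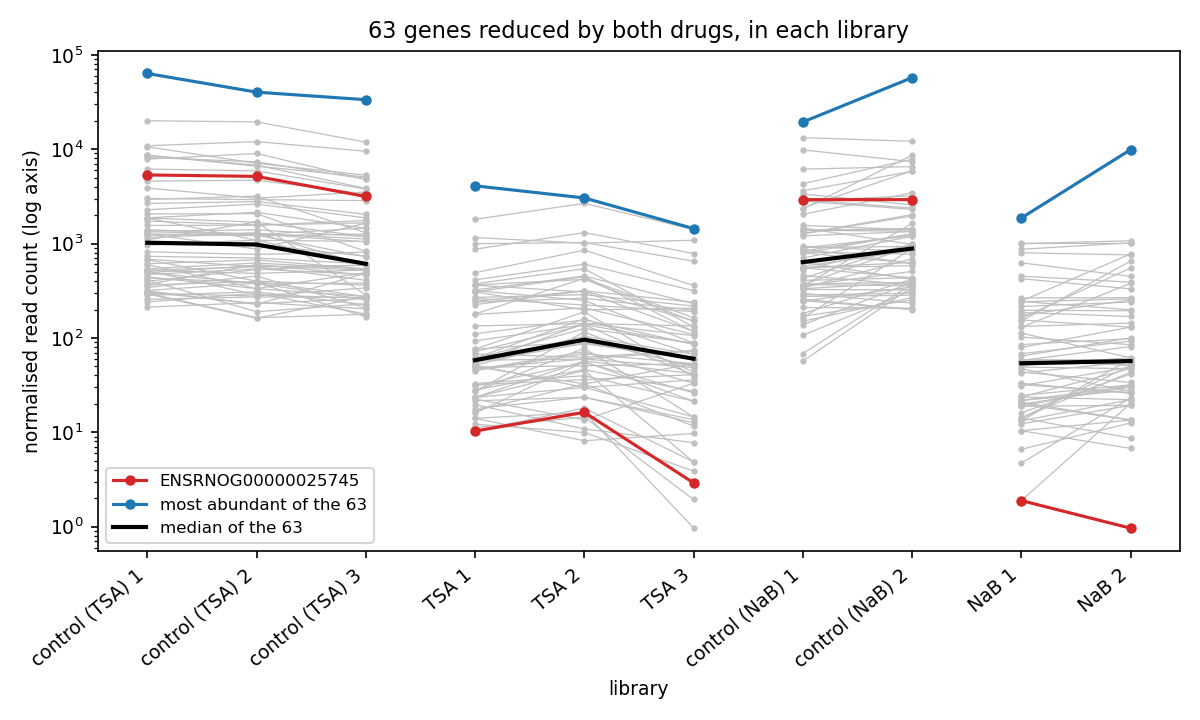
Normalised counts (y axis, log scale) of the 63 genes in each of the 10 libraries (x axis), grouped by control and treatment. Lines join the values of a gene within a group, with the median in black, ENSRNOG00000025745 in red and the most abundant gene in blue, and the median gene lies between 610 and 1020 in the 5 control libraries and between 53.9 and 95.9 in the 5 treated libraries.

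Most of these genes were reduced rather than undetectable, and so the word silencing fits few of them. Of the 63 genes, 60 had more than 3 reads in every library. Genes at 3 reads or fewer were found only in the third TSA-treated library, with 3 genes, and in the first and second NaB-treated libraries, with 2 and 1. The ratio was at most 0.1 with both drugs in 23 genes, at most 0.05 in 6 and at most 0.01 in 3. In 40 genes the larger ratio lay between 0.1 and 0.2, and in 26 of these both ratios did.

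ENSRNOG00000025745 had the lowest ratio with each drug. It had 5332, 5146 and 3153 normalised counts in the TSA controls and 10.3, 16.3 and 2.91 in the TSA-treated cultures. It had 2918 and 2920 in the NaB controls and 1.89 and 0.964 in the NaB-treated cultures. The groups were far apart in both experiments, and the third TSA-treated culture was the lowest of its group. The means with TSA were 4544 ± 1208 in controls and 9.84 ± 6.70 in treated cultures (SD, n = 3), a 462-fold fall. With NaB only 2 reads and 1 read remained, against 2797 and 2819 in controls, and the 2046-fold fall has a counting interval from 698 to 9887 (95%, exact Poisson on the 3 treated reads, which covers counting error only).

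The next 4 genes by the larger ratio also kept few reads in treated cultures, with smaller falls. They had 429 to 3179 normalised counts in control libraries and 1.89 to 23.1 in treated libraries, which were 2 to 24 reads. Their falls ranged from 119.9-fold to 268-fold with TSA and from 54.2-fold to 145-fold with NaB. The sixth gene in this order was much more abundant, with 20008, 19453 and 11866 counts in the TSA controls and 308, 447 and 117 in the TSA-treated cultures. It had 13257 and 12109 counts in the NaB controls and 162 and 551 in the NaB-treated cultures, so its fall was 58.9-fold with TSA and 35.6-fold with NaB.

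The 63 genes together made up a small share of all reads, and most of that share was lost. They took 0.722%, 0.629% and 0.442% of the reads in the TSA controls and 0.0616%, 0.0721% and 0.0398% in the TSA-treated cultures. They took 0.386% and 0.586% in the NaB controls and 0.0425% and 0.0807% in the NaB-treated cultures. No treated library reached any control library. The genes were chosen for low treated means in these same libraries, so this gap and the lower shares follow from the rule and are descriptions. The means were 0.598% ± 0.142 and 0.0578% ± 0.0165 with TSA (SD, n = 3) and 0.486% ± 0.142 and 0.0616% ± 0.0270 with NaB (SD, n = 2). The share was 11.7, 8.73 and 11.1 times lower in the 3 TSA pairs and 9.09 and 7.27 times lower in the 2 NaB pairs. Counting error was small beside this spread, since the widest exact binomial 95% interval of a library's share was ± 0.00319 percentage points.

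**Figure D3:**
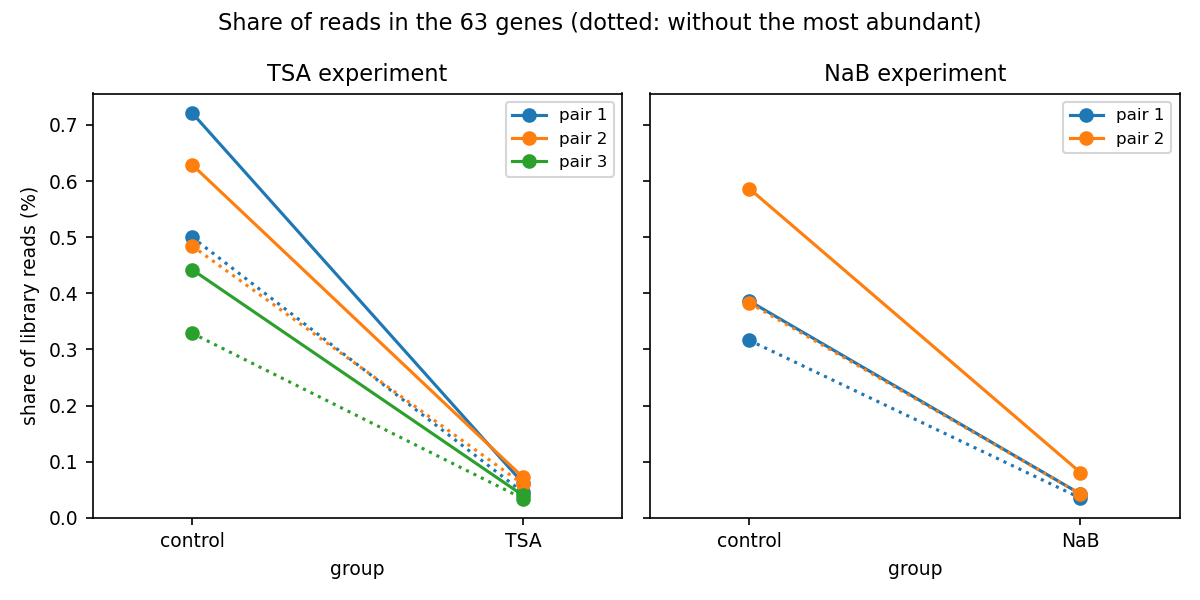
Share of a library's reads that fell on the 63 genes (y axis, percent, from 0) in control and treated cultures (x axis), with 1 panel per experiment and lines that join the pairs. Solid lines give all 63 genes, where controls lie between 0.386% and 0.722% and treated libraries between 0.0398% and 0.0807%. Dotted lines give the share without the most abundant gene.

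A single gene held much of this share. It was the most abundant of the 63, with 63372, 40210 and 33429 normalised counts in the TSA controls and 4091, 3042 and 1441 in the TSA-treated cultures. It had 19381 and 57216 counts in the NaB controls and 1866 and 9878 in the NaB-treated cultures, where the second culture of each group was the higher. Its fall was 16.0-fold with TSA and 6.52-fold with NaB, and it gave from 14.3% to 47.3% of the reads of the 63 genes in a library. Without it, the share of reads was 0.438% ± 0.0946 in TSA controls and 0.0465% ± 0.0129 in TSA-treated cultures (SD, n = 3), and 0.349% ± 0.0470 in NaB controls and 0.0389% ± 0.00515 in NaB-treated cultures (SD, n = 2).

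The genes nearest to the bounds differed little on the 2 sides. The 3 genes just inside the ratio bound had larger ratios of 0.196, 0.197 and 0.1999, and the 3 just outside had 0.201, 0.203 and 0.203. At the control level, the 3 nearest genes inside had a lower control mean of 202, 208 and 209 normalised counts, and the 3 nearest outside had 161, 165 and 178.

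The spread among untreated cultures was wide in these genes. The rule used the means of the same values, so that a single high control can bring a gene to the control level and lower its ratio, and the spread is not independent of the choice of genes. The median coefficient of variation of the 63 genes was 19.9% in the TSA controls, where that of the 10161 genes at the control level was 7.63%, and 20.1% in the NaB controls, where it was 5.65%. It was 33.1% against 7.85% in the TSA-treated cultures and 21.6% against 5.27% in the NaB-treated cultures, where the lower counts of the 63 genes also carry more counting error. The third control of the TSA experiment was the lowest of its group in 42 of the 63 genes and in 33.9% of the genes at the control level. The third TSA-treated culture was the lowest of its group in 43 genes and the second the highest in 47, against 33.9% and 38.8% of the genes at the control level. In the 52 of the 63 genes that had at least 200 counts in all 5 controls, a limit chosen after seeing the data, the median coefficient of variation was 18.7% in the TSA controls and 17.7% in the NaB controls, against 7.47% and 5.52% in the 9851 genes that did so. These values are descriptions with no test.

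In the NaB experiment the 2 controls differed by more than 2 times in 13 genes. This cut lies on a continuous range and does not mark a separate class, since ratios such as 1.78 and 1.85 lay just below it. The 13 were 20.6% of the 63 genes, against 0.689% of the 10161 genes at the control level. The second control was the higher in all 13. In 6 of the 13 the first control was under 200, so that they reached the control level only through the second. Where all 5 controls had at least 200 counts, the 2 NaB controls differed by more than 2 times in 7 of 52 of these genes (13.5%) and in 46 of 9851 genes (0.467%). The ratio of the second to the first control ran from 2.03 to 6.09, with a median of 2.95. The second NaB-treated culture was also the higher in 12 of the 13, with a median ratio to the first of 2.00 and a range from 0.986 to 5.29. In the other 50 genes the medians of these ratios were 1.03 and 1.01, and 27 were higher in the second treated culture. In the TSA experiment, the first control was the highest of the 3 in 11 of the 13 genes and in 19 of the other 50.

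**Figure D4:**
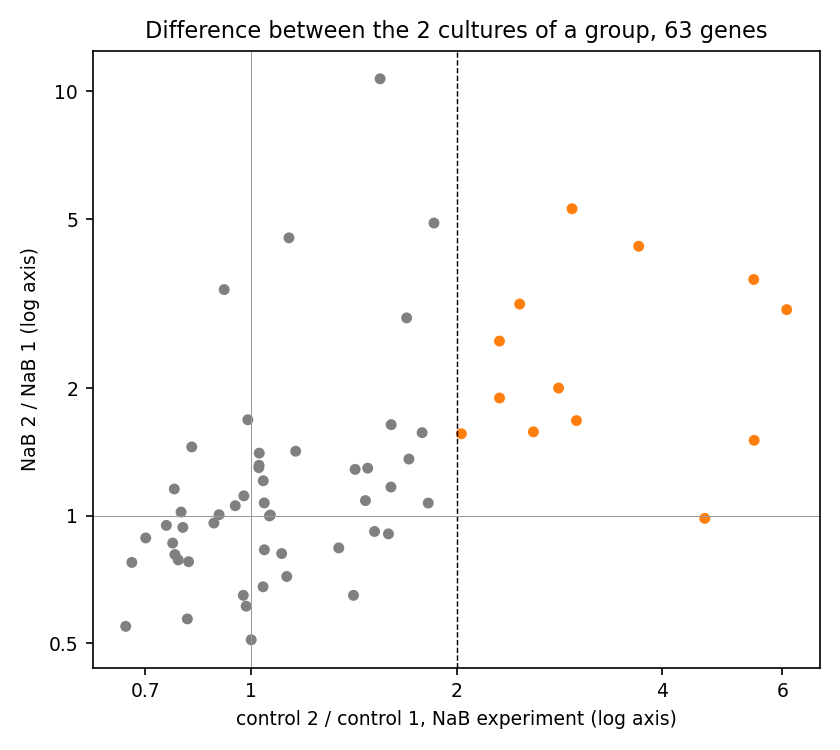
Ratio of the second to the first control of the NaB experiment (x axis, log scale) and of the second to the first NaB-treated culture (y axis, log scale) for the 63 genes, with 1 point per gene and a dashed line at a control ratio of 2. The 13 genes in orange, whose controls differ by more than 2 times, all lie at 2.03 or further right, and 12 of them lie above 1 on the y axis.

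Since each pair shared a plate, the deviations of a control from its group mean were set beside those of its treated partner. Over the 63 genes, the correlation across genes of these log2 deviations was 0.568, 0.426 and 0.345 in the 3 TSA pairs and 0.567 in the NaB experiment, where 2 pairs give a single value. Over 14970 genes with a mean of at least 10 reads it was 0.331, 0.425, 0.344 and 0.398. Genes of a library are not independent replicates, so these values describe the pairing and carry no p.

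Whether the 2 drugs lowered these genes by different amounts was asked of the difference between the responses, the log2 change with NaB minus that with TSA. The rule bounded both changes from the same values without using their difference, so the differences among the 63 genes are limited by it and are not independent of it. The difference was tested with limma on log2(normalised count + 1) over 15717 genes, and a gene was called where p, after Benjamini-Hochberg adjustment, was below 0.05 and the difference was at least 0.5 in size. All 63 genes passed the filter on low counts. A smaller fall with NaB was called in 1 of the 63 (1.59%), where 0.0255% of all genes tested were called in that direction. A larger fall with NaB was called in 0 of the 63, where 0.274% of all genes were called. At an unadjusted p below 0.05, 9 of the 63 differed (14.3%), 2 with a smaller and 7 with a larger fall with NaB, against 12.6% of all genes in this fit without the pairs.

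The gene called was ENSRNOG00000014107. It had 3876, 3024 and 3520 normalised counts in the TSA controls and 262, 223 and 190 in the TSA-treated cultures. It had 2841 and 3204 in the NaB controls and 625 and 449 in the NaB-treated cultures, both above every TSA-treated culture. The means were 3473 ± 428 and 225 ± 35.6 with TSA (SD, n = 3), a 15.4-fold fall, and 3023 ± 257 and 537 ± 124 with NaB (SD, n = 2), a 5.63-fold fall. The difference was 1.44 on the log2 scale (SE 0.24, 95% interval 0.91 to 1.97, limma adjusted p = 0.0398), and over 22 alternatives it ranged from 1.20 to 1.68 with adjusted p from 2.43e-06 to 0.170. The call was lost with no filter on low counts (adjusted p = 0.0747). It was also lost without TSA control 1 (adjusted p = 0.121) or 3 (0.104), without TSA-treated culture 2 (0.0703) or 3 (0.0811), without NaB control 1 (0.139) or 2 (0.114), and without NaB-treated culture 1 (0.170).

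With the pairs as a block in the fit, more differences were called. A smaller fall with NaB was called in 5 of the 63 genes, against 0.719% of all genes tested, and a larger fall in 4, against 1.85%. With edgeR and the same block these counts were 5 and 2, where 113 and 305 of all 15717 genes tested were called. The 5 estimates ran from 0.64 to 1.58 and the 4 from -0.95 to -1.64 on the log2 scale, with limma adjusted p from 0.00339 to 0.0474. At an unadjusted p below 0.05, 23 of the 63 genes (36.5%) differed in this fit, against 19.7% of all genes. The 63 genes were chosen for large changes in the same values, and the shares in the fits without and with pairs were not tested against those of all genes. ENSRNOG00000014107 was among the 5 (adjusted p = 0.0068), as was the most abundant of the 63 genes, whose difference was 1.12 (SE 0.96) with adjusted p = 0.680 in limma without the block and 0.0474 with it. Of these 5 genes, 3 were among the 13 whose NaB controls differed by more than 2 times.

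How closely equal and unequal responses could be told apart depended on the pairs. The differences ran from -1.83 to 1.70 on the log2 scale with a median of 0.10, where the median of all genes was -0.003, and 35 were above 0 and 28 below. This median rested on single libraries, since it was -0.06 without TSA-treated culture 3, -0.08 without NaB control 1, -0.10 without NaB-treated culture 2, 0.02 without TSA-treated culture 1, 0.06 without TSA control 1, 0.15 without TSA control 3 and 0.30 without TSA-treated culture 2. It was 0.02 with scaling by library totals, and 0.04 with edgeR and with DESeq2. Without the block, their 95% intervals reached 1.02 to either side of the estimate at the median, lay within -1 and 1 in 15 genes, and both held 0 and reached past one of these bounds in 39. With the block, they reached 0.622 to either side, lay within -1 and 1 in 25 genes, and both held 0 and reached past a bound in 17. ENSRNOG00000025745 was not called in either fit, with a difference of -1.34 (SE 0.71, 95% interval -2.91 to 0.23, limma adjusted p = 0.468 and from 0.0861 to 0.730 over 22 alternatives). The lowest of these p was that with the pairs as a block, where the interval was -2.16 to -0.52. With so few treated reads the estimate itself ranged from -2.16 with DESeq2 to -0.50 with a pseudocount of 5, and it was -0.88 without TSA-treated culture 2.

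**Figure D5:**
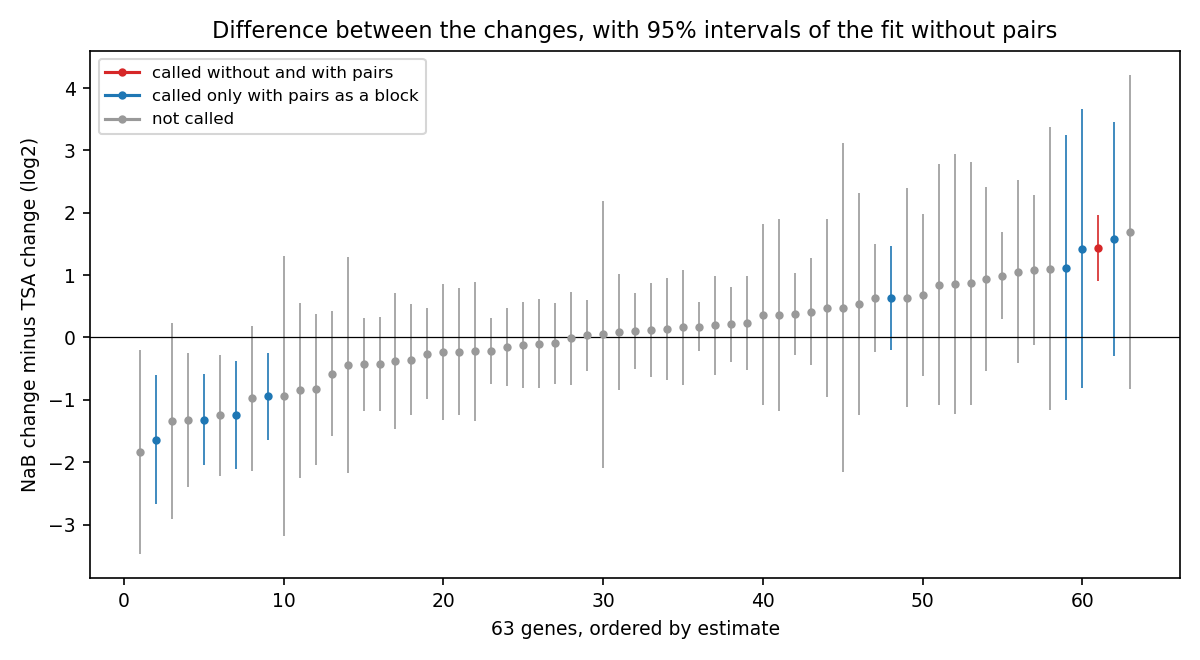
Log2 change with NaB minus log2 change with TSA (with 95% intervals from limma) for the 63 genes in order of the estimate. Estimates run from -1.83 to 1.70, ENSRNOG00000014107 (red, interval 0.91 to 1.97) is the gene called without and with pairs, and blue marks the 8 genes called only with pairs as a block.

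The 2 sets of untreated cultures were compared in the same fit, since the rule asked that both reach the same level and did not compare them. It used their means, so this contrast is not independent of it either. The NaB controls minus the TSA controls had a median of -0.34 over the 63 genes on the log2 scale, where the median of all genes was -0.02, and 49 were below 0 and 14 above. Without NaB control 1 the median was -0.09, with 39 below 0 and 24 above. A lower level in the NaB controls was called in 1 of the 63 (background 0.56%) and a higher level in 0 (background 0.986%). DESeq2 called 5 lower and 1 higher, where it called 197 lower and 383 higher of all 15717 genes. With edgeR and TMM, 2 were called lower and 0 higher, against 85 lower and 178 higher of all genes. At an unadjusted p below 0.05, 7 of the 63 differed (11.1%), against 19.4% of all genes. The 95% intervals reached 0.718 to either side at the median, and 25 intervals lay within -1 and 1. For ENSRNOG00000025745 the difference was -0.60 (limma adjusted p = 0.552).

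The gene called between the controls had 613, 671 and 539 normalised counts in the TSA controls and 296 and 234 in the NaB controls. The groups did not overlap, with means of 607 ± 66.1 (SD, n = 3) and 265 ± 44.0 (SD, n = 2). The difference was -1.20 on the log2 scale (SE 0.23, 95% interval -1.71 to -0.69, limma adjusted p = 0.0341), and over 20 alternatives it ranged from -1.37 to -1.03 with adjusted p from 4.63e-05 to 0.215. The call was kept in 12 of these and lost in 8, which were no filter on low counts (adjusted p = 0.0639) and the fits without TSA control 1 (0.102) or 3 (0.0584), TSA-treated culture 1 (0.0644), NaB control 1 (0.0597) or 2 (0.215), and NaB-treated culture 1 (0.0552) or 2 (0.0550). Its treated values were 111, 156 and 85.5 with TSA and 18.9 and 19.3 with NaB, falls of 5.18-fold and 13.9-fold. Incubation time and project cannot be told apart between these controls.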

How the data were processed

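Reads were aligned by the authors to Rnor_6.0, a rat assembly, with STAR (version 2.7.9a), assigned to genes with featureCounts (2.0.1) and divided the counts by a size factor per library from the median-of-ratios method of DESeq2 (1.29), as their methods and processing notes say. The strand setting is not given in the sources used here. The deposited signal is thus a normalised count and not a raw one. Divided by the smallest value above 0 of its library, 100% of the values above 0 were whole within 0.01 reads, and these recovered reads gave the depth and the read-based alternatives. Where 3 reads are taken as the floor, this is 2.71 to 3.20 normalised counts.

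Differences were tested with limma 3.58.1 (R 4.3.3) with a mean-variance trend on log2(value + 1), so that changes of low genes are understated. Of 24293 genes with at least 1 read, filterByExpr (minimum count 10, edgeR 4.0.16) kept 15717. All 10 libraries entered as 4 groups, tests were two-sided, and Benjamini-Hochberg adjustment ran over all genes tested. edgeR's quasi-likelihood test with TMM on the recovered reads called 4 genes higher and 51 lower for the difference between the responses, and 178 higher and 85 lower between the controls. DESeq2 1.42.0 was another alternative, beside other pseudocounts, filters, scalings, fold minimums, a block for pairs and each library left out.

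Pairs came from the numbers in the titles for TSA and from consecutive library names for NaB, and the methods state that partners shared a plate. Deviations of partners correlated at 0.331, 0.425 and 0.344 (TSA) and 0.398 (NaB) over 14970 genes. On simulated data with 200 changed genes of 15717, limma recovered 101 at 2-fold and 174 at 4-fold for the difference between the responses, with 5 and 7 false calls, and 150 and 184 between the controls, with 10 and 5. No separate recovery is given for the fit with the pairs as a block.

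The genes and all lists and tests were chosen with earlier results of these data known. The planned naming rule would have named the 10 lowest ratios, listed genes and genes called. Only the gene with the lowest ratio and the gene called for the difference between the drugs are given by identifier, and other genes by rank or description. Because identifiers could not be paired with symbols, the planned counts over 257 listed marker and pathway genes, the promoter motifs, neighbours on chromosomes and sequences were not analysed here. Columns of fold changes and p-values in the study's supplement were not used.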

Additional observations from a re-analysis of the deposited data

Results flagged for a closer look

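ENSRNOG00000014107 was called for a difference between its responses to the 2 drugs, with a log2 change with NaB minus that with TSA of 1.44 (SE 0.24, limma adjusted p = 0.0398). The call was lost in 8 of 22 alternatives, 7 of them fits without a single library (adjusted p from 0.0703 to 0.170) and the other the fit with no filter on low counts (0.0747), and it was kept with the pairs as a block (0.0068). It was lower in treated than in control cultures in all 5 pairs, by 15.4-fold with TSA and by 5.63-fold with NaB. The rule chose it for a fall with both drugs, so these falls are descriptions. The difference was tested on the values that the rule used and is not independent of it. Drug, dose, incubation time and project cannot be told apart in this difference.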

How the results depend on the processing

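The rule gave 63 genes, and 23 with a ratio bound of 0.1, 118 with 0.25, 37 with a control level of 500 and 38 when every treated culture had to be within the bound of its own control. It gave 51 to 82 genes without each library in turn, fewest without NaB control 2 and most without TSA-treated culture 2, and shared 48 and 61 of the 63 there. Scaling by library totals, which moved the median change of all genes by 0.18 with TSA and 0.11 with NaB on the log2 scale, left 48, all among the 63. Of the 63 genes, the number called for the difference between the drugs was 1 (0.299% of all genes tested were called), and it was 0 with no filter on low counts (0.128%), 3 with DESeq2 (1.62%), 9 with the replicate block (2.57%), 7 with edgeR, TMM and the replicate block (5 with a smaller and 2 with a larger fall with NaB, 2.66%, chosen after seeing the data) and 0 to 1 without each library (0.00621% to 0.287%). The number called between the controls was 1 (1.55%), and it was 0 with no filter (0.428%), 2 with edgeR and TMM (1.67%), 6 with DESeq2 (5 lower and 1 higher, 3.69%) and 0 to 2 without each library (0.137% to 2.94%). The causes of these moves were not tested. No estimate of a named gene changed sign, and the other settings gave counts within 1.5 times. All 13 genes with NaB controls more than 2 times apart stayed so under library totals and under TMM factors (both chosen after seeing the data). No paired analysis was possible for the controls because each pair lies within 1 experiment. Alternatives for the listed marker and pathway genes were not run. With 3 and 2 cultures per group, the interval of the difference between the drugs reached past 2-fold in 48 of the 63 genes, and in 38 with the replicate block.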
